A study of Mus musculus with 12 samples.

Results

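Neural progenitor cells (NPCs) that had received only a control vector were profiled on 4 of the 12 arrays of the series, chosen by their titles: 2 arrays labelled EGFP and 2 labelled shEGFP. The cells were labelled as mouse NPCs obtained by differentiation in vitro and were grown on gelatin with EGF (10 ng/ml) and bFGF (10 ng/ml). The EGFP control carried a retroviral overexpression vector with the cDNA of enhanced green fluorescent protein and belonged to the experiment with Mkl1 and Srf overexpression. The shEGFP control carried a retroviral hairpin vector whose short hairpin RNA is directed against EGFP, a gene that mouse cells lack, and belonged to the experiment with 2 hairpins against Actb (shActb_1 and shActb_2). Infected cells were selected with puromycin. The methods describe an NPC line made from embryonic stem cells with a blasticidin resistance gene at the Oct4 locus. They also describe a derivative of it, obtained through induced pluripotent stem cells, that carries doxycycline-inducible Oct4, Klf4, c-Myc and Sox2 transgenes, and name either line as the source for molecular work. The labels do not say which of them was hybridized, so a contribution of transgenes to the Sox2, Klf4, Myc and Pou5f1 probes was not tested.

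NPCs in adherent culture are a model of the radial glia of the developing brain. They divide in response to EGF and FGF and can give rise to neurons, astrocytes and oligodendrocytes. They are recognised by the intermediate filament nestin (Nes), the transcription factors Sox2 and Pax6, and the brain lipid-binding protein Fabp7. Their shape and their attachment to the substrate rest on actin filaments and on a secreted matrix. Free actin monomers hold back the cofactors of Srf (serum response factor), which binds CArG boxes in the promoters of many cytoskeletal genes.

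Levels are given as the log2 of the Agilent processed signal minus the 75th percentile of the same array, so 0 is the 75th percentile of all probes on that array and 1 is 2-fold above it. A probe counted as detected when the scanner software flagged it as well above background. Each gene was read by the probe with the highest mean signal over all 12 arrays and was put in 1 of 4 classes: high (above the 75th percentile on all 4 control arrays), detected (well above background on all 4, but not high), mixed (on 1 to 3) or not detected (on 0). A probe's brightness depends on its sequence, so the levels of different genes were not ranked against each other. In bulk RNA, fewer cells of a type and less RNA per cell cannot be told apart.

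Between 64.1% and 66.8% of the 55681 probes were well above background on the control arrays, and no spot was saturated. The EGFP arrays correlated at r = 0.993 with each other and differed by over 2-fold for 2.74% of the probes detected on both, against r = 0.997 and 0.759% for the shEGFP arrays. Between the controls, r was 0.983 to 0.987 over the 31384 probes detected on all 4 arrays. The 75th percentile of the signal was 887 and 909 on the EGFP arrays and 1087 and 1078 on the shEGFP arrays, and each array was scaled to its own. After scaling, 8 of the 10 spike-in RNAs were above background, and their differences (log2, shEGFP minus EGFP) ran from -0.78 to -0.21. The part of this shift in the differences between genes was not tested. EGFP was hybridized on slide 1 beside Mkl1 and Srf, and shEGFP on slide 2 beside shActb_1, while shActb_2 lay on slide 3. Vector, experiment and slide therefore cannot be told apart in any difference between the controls. The study calls the duplicates of its Actb knockdown technical, and the labels do not say what the duplicates of the overexpression experiment are. The p-values measure the spread between arrays and are not read as a spread between cultures.

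The marker genes that define the label were examined first. All 4 progenitor markers were well above background on all 4 control arrays, and Nes and Sox2 stood in the high class. Nes read 3.71 and 4.22 on the EGFP arrays and 4.21 and 4.15 on the shEGFP arrays, between the 91.4th and the 93.4th percentile of the probes. Sox2 read 1.70 and 1.34 in EGFP and 1.15 and 1.22 in shEGFP, at the 80.5th to 82.9th percentile. Pax6 and Fabp7 lay below the 75th percentile. Pax6 read -1.28 and -1.01 in EGFP and -1.57 and -1.47 in shEGFP. Fabp7 read -2.98 and -3.55 in EGFP and -3.04 and -2.88 in shEGFP. The values of the 2 controls overlapped for Nes and Fabp7 and were separate for Sox2 and Pax6, where both shEGFP arrays lay below both EGFP arrays.

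**Figure D1:**
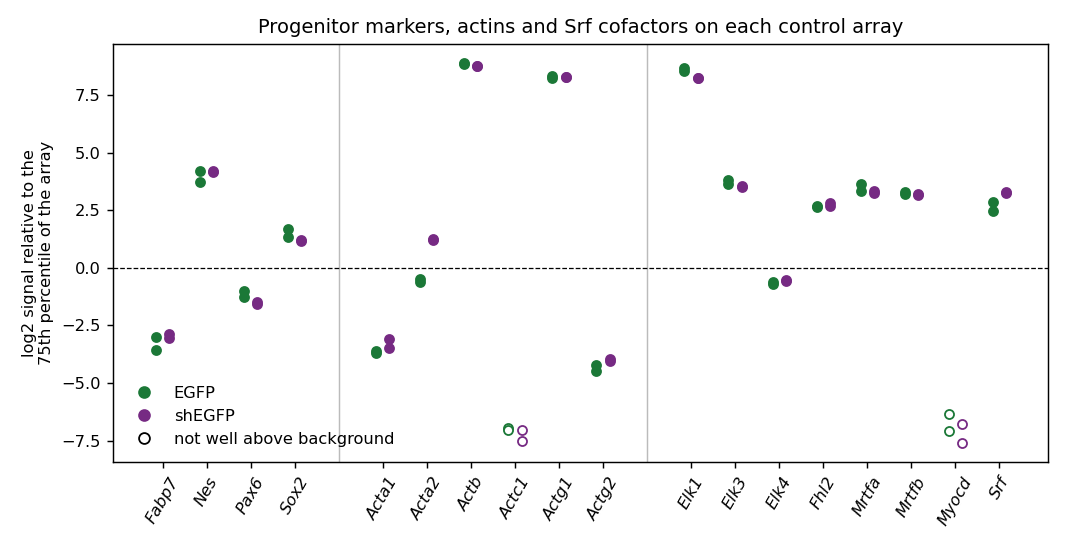
Log2 signal relative to the 75th percentile of the array (vertical axis, dashed line at 0) for the 4 progenitor markers, the 6 actin genes and Srf with its cofactors, with 1 point for each control array (green, EGFP; purple, shEGFP). Filled points were well above background on both arrays of the control and open points on neither. Acta2 is the changed gene among those plotted, at -0.61 and -0.48 in EGFP against 1.26 and 1.20 in shEGFP.

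Of 25 genes of neural stem cells and radial glia, 10 stood in the high class, 11 were detected at lower levels, 1 (Tnc) was mixed and 3 (Nr2e1, Ptprz1 and Sox3) were not detected on any control array. Vim, the intermediate filament vimentin, was at the 99.4th to 99.5th percentile. Also in the high class were the inhibitors of bHLH factors Id1, Id2 and Id3, the adhesion molecule Cdh2 (N-cadherin), the FGF receptor Fgfr1, the tetraspanin Cd9, the hedgehog effector Gli3, the RNA-binding protein Msi2 and the glutamate transporter Slc1a3. The transcription factors Sox1, Sox9, Sox21 and Lhx2 and the surface protein Prom1 were detected below the 75th percentile. The 4 markers that define the label were thus present, and part of the radial glial list was not. Nr2e1 encodes the orphan nuclear receptor Tlx, and Ptprz1 a receptor phosphatase of radial glia. Their probes read between -6.92 and -7.64 and between -5.22 and -7.04, a range in which signals have no order.

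The differentiated neural lineages were present in part. Of 25 neuronal genes, 17 were detected on all 4 arrays. Map2, Snap25, Stmn2, Syn1 and Syp, which encode cytoskeletal and synaptic proteins of neurons, stood in the high class, between the 77.5th and the 88.8th percentile over all of them. The neuroblast marker Dcx was detected at a low level (-3.38 and -4.72 in EGFP, -5.31 and -3.46 in shEGFP), and Tubb3, the neuronal β-tubulin, at -1.45 to -0.57. Gad1, Nefm and Stmn3 were not detected. Among 12 astrocyte genes, Aldh1l1, Aldoc, Apoe, Clu, Gja1 and Glul stood in the high class, whereas Gfap was above background on 3 of 4 arrays and Gjb6 and Slc1a2 on 0. The oligodendrocyte lineage was split in the same way. Its lineage factors Olig1, Olig2, Sox8 and Myrf and the receptor Gpr17 were not detected, while the myelin genes Mbp and Cnp stood in the high class, and the progenitor genes Pdgfra, Cspg4, Nkx2-2 and Sox10 were detected below it.

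Within the Notch pathway, the receptors Notch1 and Notch2, the ligand Jag1, the regulator Numbl and the bHLH gene Hes6 stood in the high class, the target Hes1 and the receptor Notch3 were detected, and the target Hes5 was above background on 3 of 4 arrays. The ligand Dll1 and the proneural factors Neurod1 and Neurod4 were not detected. The patterning genes in the high class included the ventral forebrain factors Dlx2 and Lhx6 and the hindbrain and trunk genes Hoxa3, Hoxa7 and Hoxd8. Of 44 patterning genes, 29 were detected on all 4 arrays and 7 on none, among them Emx2, Otx1 and Nkx2-1.

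Genes used as markers of cell types outside the neural lineage were also read, as a check of the label. Of 23 mesodermal and mesenchymal genes, 11 stood in the high class, including Prrx1, Prrx2, Twist1, Twist2, Snai1, Snai2, Zeb1, Foxc1 and Pdgfrb. The share of mesenchymal genes in the high class was 47.8%, against 40.4% of all 21154 named genes, and 17 of 23 (73.9%) were detected on all 4 arrays, against 68.4%; both are descriptions with no test. Of 16 epithelial genes, the simple-epithelium keratins Krt8, Krt18 and Krt19 with Cldn6 and Trp63 stood in the high class, and Epcam and Cdh1 were detected below it. Of 20 pluripotency genes, 15 were detected, with Klf2, Klf4, Klf5, Myc and Tbx3 in the high class. Nanog read -1.15 to -0.74 and Pou5f1 (Oct4) -4.93 to -3.98 over the 4 arrays, and Fgf4 and Prdm14 were not detected. Detection was least complete for endothelium (2 of 8 genes on all 4 arrays, with Cdh5, Tek, Tie1, Erg and Emcn not detected) and endoderm (5 of 12, with Alb, Sox17, Pdx1 and Cdx2 not detected). For blood and microglia 6 of 9 genes were detected, but the defining factors Spi1 and Cx3cr1 were not. For striated muscle 7 of 14 were detected, and Myf5, Myog, Myh3 and Actc1 were not. The part of other cells in these levels was not tested.

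**Figure D2:**
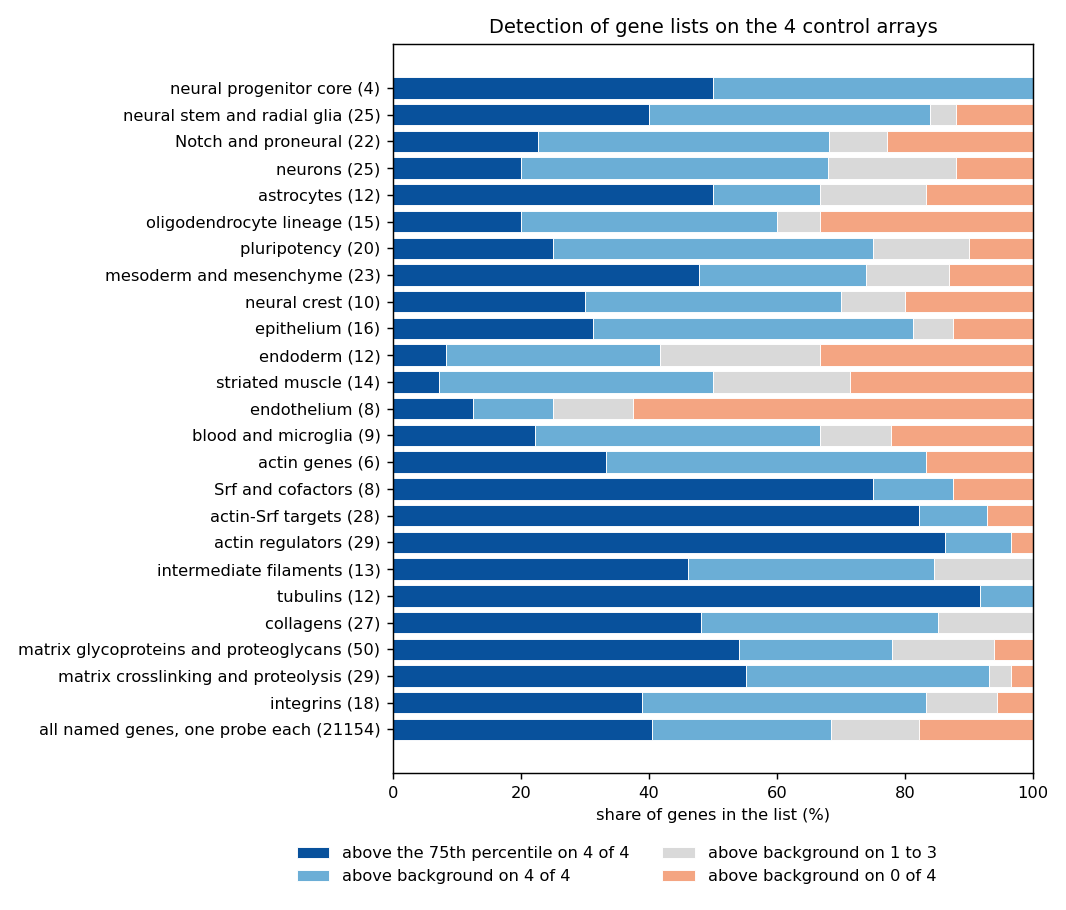
Share of the genes of each list (horizontal axis, percent; number of genes in parentheses) in the 4 detection classes on the control arrays, with the same for all named genes at the bottom. The second class holds genes detected on all 4 arrays that were not above the 75th percentile on all of them. The high class holds 11 of 12 tubulins and 25 of 29 actin regulators but 2 of 6 actin genes and 6 of 13 intermediate filament genes, and endothelium has the largest plotted share of undetected genes (62.5%).

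The cytoskeleton was detected almost in full. Actb and Actg1, the cytoplasmic β- and γ-actin genes, lay at or above the 99.7th percentile on all 4 arrays. Actb read 8.86 and 8.89 in EGFP and 8.74 and 8.75 in shEGFP, and Actg1 8.26 and 8.31 against 8.26 and 8.28. The muscle actins Acta1, Acta2 and Actg2 were detected below the high class, and the cardiac actin Actc1 was not detected. Actin genes have close paralogs, so their probe signals are uncertain to that extent. Among Srf and its cofactors, Srf, Mrtfa (Mkl1), Mrtfb, Fhl2 and the ternary complex factors Elk1 and Elk3 stood in the high class, Elk4 was detected, and myocardin (Myocd), the cofactor of cardiac and smooth muscle, was not detected.

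Of 28 cytoskeletal genes known as targets of the actin-Srf pathway, 23 stood in the high class, among them the filamin Flna, the tropomyosins Tpm1, Tpm2 and Tpm4, and the focal adhesion genes Zyx, Vcl and Tes. Acta2, Cnn1 and Itga5 were detected and Fhl1 and Lmod1 were not. Of 29 actin regulators, 25 stood in the high class and Cap2 alone was not detected. The tubulins Tuba1a, Tuba1b, Tuba1c, Tubb4b, Tubb5 and Tubb6 lay at or above the 97.9th percentile on all 4 arrays. Of 12 tubulins, Tubb3 alone was outside the high class.

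The matrix genes were also broadly detected. Of 27 collagen genes, 23 were detected on all 4 arrays and none was below background on all of them. Those in the high class included the fibrillar chains Col1a1, Col1a2, Col3a1 and Col5a1, and the basement membrane chains Col4a1, Col4a2, Col4a5, Col4a6 and Col18a1. The cartilage chains Col2a1, Col9a1 and Col11a2 were detected below it. Of 50 matrix glycoproteins and proteoglycans, 27 stood in the high class, with Sparc at the 99.5th to 99.7th percentile and Fn1 (fibronectin) at the 97.6th to 97.8th. The laminin chains Lama5, Lamb1, Lamb2 and Lamc1 and both nidogens were in the high class, while Lama1 was not detected. The proteoglycans of neural matrix Bcan and Ncan were mixed. Among 29 genes of matrix crosslinking and proteolysis, Loxl1, Loxl2, Timp1, Timp2, Timp3, Mmp2 and Mmp11 stood in the high class, and among 18 integrins Itga3, Itga6, Itga7, Itga8, Itgav, Itgb1 and Itgb5 did. Of all 680 list genes with a probe, 551 (81.0%) were detected on all 4 control arrays, 340 of them in the high class, 63 were mixed and 66 were not detected.

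The second question was how the 2 controls differ. One limma fit held all 12 arrays. Changed probes are those that differed by over 2-fold with an adjusted p (Benjamini-Hochberg) under 0.05. Tested were the 37677 probes detected on both arrays of EGFP or both of shEGFP. Of these, 3848 (10.2%) were changed, 2233 (5.93%) higher and 1615 (4.29%) lower in shEGFP. With 1 probe per named gene, 1131 of 16214 (6.98%) were changed, 657 (4.05%) higher and 474 (2.92%) lower. The median difference over all probes tested was -0.07 on the log2 scale. Without shEGFP array 2 the lower calls numbered 681, and with the normexp background correction the changed probes numbered 781.

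The changed probes were mostly dim. With the tested probes ordered by mean signal and cut into 5 bins of equal size, 26.8% were changed in the dimmest bin, then 13.2%, 7.27%, 2.55%, and 1.18% in the brightest. Of the 31384 probes detected on all 4 arrays, 1711 were changed, 1045 of them higher and 666 lower in shEGFP. A further 954 changed probes were below background on both EGFP arrays and 746 on both shEGFP arrays. Their direction was fixed by the filter, since they had entered through the other control. The same held for genes: of 8550 named genes in the high class 52 (0.608%) were changed, against 481 of 5925 (8.12%) of those detected below it. Among the list genes the counts were 4 of 340 (1.18%) and 23 of 211 (10.9%).

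**Figure D3:**
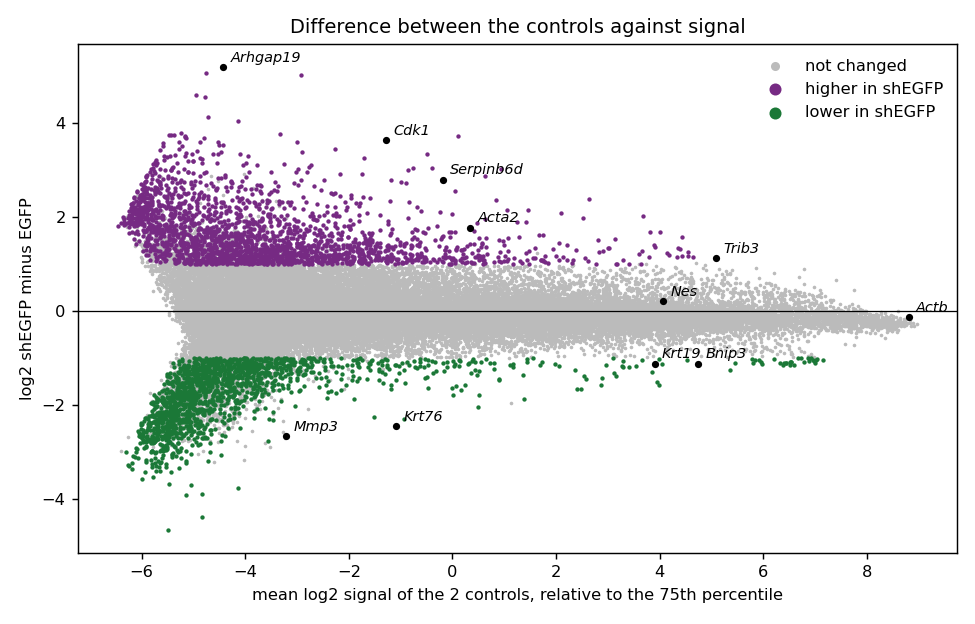
Difference between the controls (vertical axis, log2 shEGFP minus EGFP) against the mean log2 signal of both (horizontal axis, relative to the 75th percentile) for the 37677 probes tested, with changed probes in purple (higher in shEGFP) and green (lower). Black points mark named genes: Actb and Nes lie close to 0, and most changed probes lie at the dim end, where many are below background in one control and their difference is no exact fold.

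**Figure D4:**
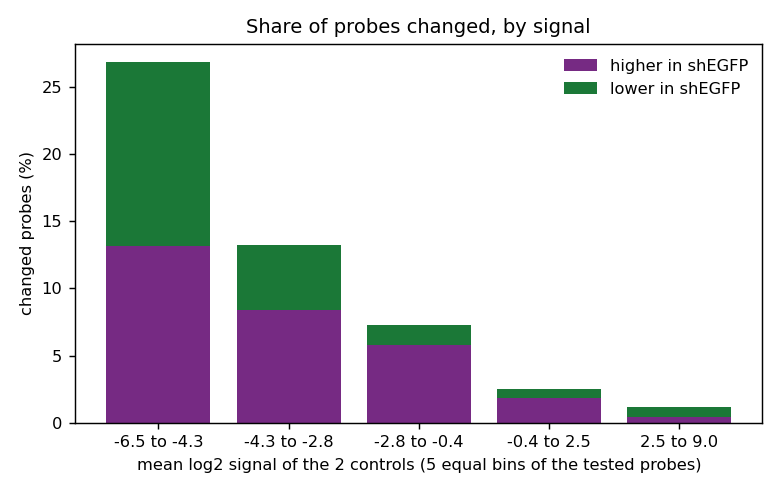
Percent of the tested probes that were changed (vertical axis) in 5 equal bins of the mean log2 signal of both controls (horizontal axis), higher in shEGFP in purple and lower in green. The share falls from 26.8% in the dimmest bin to 1.18% in the brightest.

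Of the 684 list genes, 680 had a named probe and 584 were tested. Changed list genes numbered 38 (6.51%), 16 higher and 22 lower in shEGFP, a share close to the 6.98% over all named genes. The median difference over the 584 list genes tested was -0.08, as over all named genes. Changed genes numbered 0 among the 4 progenitor markers, 2 of 22 among radial glia genes, 1 of 5 among actin genes, 1 of 26 among actin-Srf targets, 0 of 7 among Srf and its cofactors and 1 of 12 among intermediate filament genes. For the progenitor markers the differences were 0.22 for Nes (SE 0.15, adjusted p = 0.278), -0.33 for Sox2 (SE 0.20, adjusted p = 0.106), -0.37 for Pax6 (adjusted p = 0.0185, under 2-fold) and 0.31 for Fabp7 (adjusted p = 0.237). No changed gene was found among 17 mesenchymal, 28 actin regulator, 12 tubulin, 16 integrin, 27 interferon-stimulated, 13 small RNA processing, 26 immediate-early, 14 p53 target or 15 sterol synthesis genes tested. Several of these lists are bright: the high class held 25 of 29 actin regulators, 11 of 12 tubulins and 15 of 15 sterol synthesis genes. In that class 0.608% of all named genes were changed. By the adjusted p alone, with no limit on the fold, 36.9% of all named genes passed. In these lists 6 of the mesenchymal genes, 6 of the actin regulators, 7 of the tubulins, 6 of the integrins, 10 of the interferon-stimulated, 4 of the small RNA processing, 4 of the immediate-early, 8 of the p53 target and 1 of the sterol synthesis genes did.

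Acta2, the smooth muscle α-actin gene and a target of Srf, was the changed member of the actin genes and of the actin-Srf targets. It read -0.61 and -0.48 on the EGFP arrays and 1.26 and 1.20 on the shEGFP arrays. Both shEGFP arrays lay above both EGFP arrays, by 1.77 (log2; SE 0.08, adjusted p = 5.76e-05), and the call held with each control array left out and with normexp, where the difference was 1.66. Its means on the treated arrays were 6.38 in Mkl1, 2.83 in Srf, 5.65 in shActb_1 and 6.27 in shActb_2, all above both controls. The other actin genes were not changed: Actb differed by -0.13 (adjusted p = 0.0845), Actg1 by -0.01, Acta1 by 0.36 and Actg2 by 0.33. Srf itself read 2.45 and 2.87 in EGFP and 3.27 and 3.23 in shEGFP, a difference of 0.59 (adjusted p = 0.011) that was under 2-fold. It was 0.38 without EGFP array 1, and its adjusted p was 0.0614 without shEGFP array 1. Of the 26 actin-Srf targets tested, 18 had a difference above 0 and 8 below, with a median of 0.13 (0.04 without EGFP array 1), against -0.08 over all named genes. Myl9 (0.70), Cnn1 (0.49) and Tagln (0.45, adjusted p = 0.144) were among those above 0 and were not changed.

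The promoters of Acta2, Srf and Myl9 (a myosin light chain gene and target of the pathway) are shown because Acta2 was the changed gene among the actin-Srf targets and Srf is the factor of that pathway. The sequences are from RefSeq on GRCm38.p6, 250 bases before to 50 after the transcription start, on the strand of the gene. Capitals mark CCNNNNNNGG with every N an A or T (the full CArG box), or with 1 of these replaced by G or C, searched on both strands. Acta2 (chr19:34255324-34255623, minus strand) held 0 full matches and 2 with 1 replacement, Srf (chr17:46556113-46556412, minus strand) 2 full matches, and Myl9 (chr2:156775214-156775513, plus strand) 1 of each kind.
Acta2: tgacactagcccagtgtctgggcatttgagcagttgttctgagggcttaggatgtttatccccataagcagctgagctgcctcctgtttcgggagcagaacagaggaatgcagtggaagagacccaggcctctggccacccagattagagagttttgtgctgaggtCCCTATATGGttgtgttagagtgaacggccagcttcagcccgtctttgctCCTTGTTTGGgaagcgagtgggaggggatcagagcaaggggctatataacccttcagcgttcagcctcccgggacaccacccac
Srf: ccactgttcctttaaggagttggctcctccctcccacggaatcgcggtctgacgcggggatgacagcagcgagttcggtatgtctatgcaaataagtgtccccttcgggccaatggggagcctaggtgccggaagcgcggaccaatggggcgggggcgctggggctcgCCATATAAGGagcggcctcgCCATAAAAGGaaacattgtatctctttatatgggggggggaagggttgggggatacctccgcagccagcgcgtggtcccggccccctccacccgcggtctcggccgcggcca
Myl9: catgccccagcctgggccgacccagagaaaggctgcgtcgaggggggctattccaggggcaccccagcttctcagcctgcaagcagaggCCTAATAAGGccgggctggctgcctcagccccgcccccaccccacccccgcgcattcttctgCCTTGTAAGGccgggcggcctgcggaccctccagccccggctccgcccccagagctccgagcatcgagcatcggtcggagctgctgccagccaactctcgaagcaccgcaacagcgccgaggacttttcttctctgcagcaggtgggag
Of all 27025 promoters in the table, 425 (1.57%) held a full match and 2702 (10.0%) a match with at most 1 replacement. Of 25 actin-Srf targets with a promoter there, 5 and 7 did. A match is a description of the letters in this window and not evidence of a site in use.

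Genes of epithelium had a median of -0.67 over 14 tested, against -0.08 over all named genes, and of -0.43 without EGFP array 2. Of these 14, 5 were lower and 1 was higher in shEGFP, against 2.92% and 4.05% of all named genes. The lower ones numbered 3 without shEGFP array 2, with quantile normalization or with the 4 control arrays fitted alone. Epcam, an epithelial adhesion molecule, read -2.17 and -2.24 in EGFP and -3.44 and -3.68 in shEGFP, and fell by 1.35 (log2; SE 0.14, adjusted p = 0.000724). Cdh1 (E-cadherin) read -3.79 and -3.97 in EGFP and -4.90 and -5.15 in shEGFP and fell by 1.15 (adjusted p = 0.000831). The controls did not overlap for either gene. Krt19 stood in the high class, at 4.39 and 4.53 in EGFP and 3.33 and 3.36 in shEGFP, and fell by 1.12 (SE 0.08, adjusted p = 0.000258). Krt7 fell by 1.12 (adjusted p = 0.00947), but by 0.98 without EGFP array 1 and 0.77 without shEGFP array 2, both under 2-fold. Cldn3, a tight junction gene (-1.03), and Krt14, a keratin of basal epithelium that was higher in shEGFP, were the other changed members and were chosen after their values were seen. Krt18 (-0.92) and Krt8 (-0.60) did not reach 2-fold. With normexp 1 of the 14 was changed, Krt19, the median was -0.59, and Epcam, Cdh1 and Krt7 differed by -0.85, -0.61 and -0.66. The treated arrays, hairpin against overexpression, gave -0.31 for Epcam and 0.43 for Krt19, and neither was changed there.

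Genes induced by low oxygen included 3 changed members of 17, all lower in shEGFP, against 6.98% changed and 2.92% lower over all named genes, and the median of the list was -0.34. Ankrd37, a target of hypoxia-inducible factor, read 0.83 and 1.18 in EGFP and -0.34 and -0.26 in shEGFP and fell by 1.31 (SE 0.17, adjusted p = 0.00193). Bnip3, a receptor of mitophagy, read 5.29 and 5.33 in EGFP and 4.03 and 4.35 in shEGFP and fell by 1.12 (adjusted p = 0.000545). It is read by 2 further probes, which differed by -0.90 and -0.88 and were not changed. P4ha1, a subunit of collagen prolyl hydroxylase, fell by 1.03 (adjusted p = 0.000326), and its further probe differed by -0.94 and was not changed. All 4 EGFP values of Bnip3 and P4ha1 lay above their shEGFP values. The Bnip3 difference was -0.96 without shEGFP array 1 and the P4ha1 difference -0.97 without EGFP array 1, each just under 2-fold. With normexp the P4ha1 difference was -0.89 and 2 of the 17 were changed. None of the 3 was changed between the treated arrays, where Ankrd37 differed by -0.29 and Bnip3 by -0.11.

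Changed matrix genes numbered 2 of 28 in crosslinking and proteolysis, 1 of 24 collagens and 1 of 43 glycoproteins and proteoglycans, against 6.98% of all named genes. Mmp3 (stromelysin-1, a matrix protease) had the largest decrease of all genes that were detected on the 4 arrays. It read -1.81 and -1.95 in EGFP and -4.59 and -4.50 in shEGFP and fell by 2.67 (SE 0.16, adjusted p = 0.000128), with no overlap. On the treated arrays its means were -2.62 in Mkl1, -4.45 in Srf, -4.36 in shActb_1 and -2.33 in shActb_2. Col6a3, a chain of collagen VI, differed by -1.69 but was above background on 1 of the 2 shEGFP arrays. It entered the test through EGFP, where it is high, so its adjusted p of 0.00112 is no support for the direction. Sparcl1 (hevin), a matrix protein of astrocytes, is not in these matrix lists. It was the 1 changed gene of 9 tested in the astrocyte list (11.1%, against 6.98% of all named genes). Sparcl1 read 1.15 and 0.89 in EGFP and -0.62 and -0.48 in shEGFP and fell by 1.57 (SE 0.10, adjusted p = 0.000168). Fbln5, an elastic fibre protein, was higher in shEGFP by 1.07 (adjusted p = 0.00294), but by 0.80 without EGFP array 1. With normexp the Col6a3 difference was -0.85 and that of Fbln5 0.65, both under 2-fold.

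Among neural genes, changes ran in both directions. Of 22 neuronal genes tested, 3 were higher and 3 lower, against 4.05% and 2.92% of all named genes. Elavl4, a neuronal RNA-binding protein, read -0.86 and -0.96 in EGFP and 0.67 and 0.87 in shEGFP and rose by 1.68 (SE 0.15, adjusted p = 0.000466). Its paralog Elavl3 went the other way: it was not well above background in shEGFP and was at least 3.67-fold lower there (adjusted p = 0.0218, in a direction that the filter fixed), a call that held only with all arrays or without EGFP array 2, since the adjusted p was 0.0728 to 0.099 without any other. Nefl (neurofilament light chain) fell by 1.08 (adjusted p = 0.00711), and by 0.79 without EGFP array 2 and 0.99 without shEGFP array 1. Slc17a6, a vesicular glutamate transporter, was not well above background in EGFP and at least 1.06-fold higher in shEGFP, in a direction that the filter fixed. With normexp the differences of Elavl3 (-0.88) and Slc17a6 (0.26) were under 2-fold.

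Of the radial glia genes, Fgfr3 (an FGF receptor) read -2.18 and -2.29 in EGFP and -0.96 and -0.86 in shEGFP and rose by 1.32 (SE 0.10, adjusted p = 0.000321). A further Fgfr3 probe differed by 0.13. Msi1 (Musashi-1, an RNA-binding protein) rose by 1.16 (adjusted p = 0.000411), while its further probe differed by -0.78 and was not changed, so the gene's direction depends on the probe. Mog and Mag, 2 genes of the myelin sheath, rose by 1.36 (SE 0.10, adjusted p = 0.000272) and 1.19 (adjusted p = 0.00672; 0.94 without EGFP array 2). Notch3 fell by 1.09 (adjusted p = 0.0096), by 0.76 without EGFP array 2, and its adjusted p was 0.0581 without shEGFP array 2. With normexp the calls of Fgfr3 (0.99), Mag (0.72) and Notch3 (-0.90) were lost.

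Among patterning genes, Hoxb9, a trunk gene, read -5.81 and -4.79 in EGFP, where it was above background on 1 array, and -3.02 and -2.87 in shEGFP, a difference of 2.35. It entered the test through shEGFP, where it is high, so its adjusted p of 0.00207 is no support for the direction, and with normexp it differed by 0.84 and was not changed. Gbx2, a hindbrain gene, and Dbx2, a gene of the ventricular zone, were not well above background in shEGFP and were at least 2.36-fold (adjusted p = 0.00107) and 2.42-fold (adjusted p = 0.00778) lower there. The filter fixed that direction, so these p-values do not bear on it, and with normexp the differences were -0.64 and -0.61. Trib3, a pseudokinase of the amino acid stress response, was higher in shEGFP by 1.12 (adjusted p = 0.0175), with adjusted p of 0.0709 to 0.0808 without EGFP array 1, shEGFP array 1 or shEGFP array 2. Dim markers of other cell types differed too. Myod1, the myogenic factor, and Pax7 were not well above background in EGFP and at least 1.64-fold and 1.31-fold higher in shEGFP, while the troponins Tnni1 and Tnnt3 fell by 1.17 and 1.11 (Tnnt3 by 0.91 without EGFP array 2) and the microglial gene Aif1 by 1.31. In the pluripotency list Tdgf1 fell by 1.06 and Dppa2 was at least 1.83-fold higher. Myod1, Pax7 and Dppa2 entered the test through shEGFP, so the filter fixed their direction and their adjusted p does not bear on it. The further probe of Dppa2 differed by -0.04 and was not changed, whereas that of Tnnt3 differed by -1.14 and was changed. The adjusted p of Aif1 reached 0.139, that of Pax7 0.0814 and that of Tdgf1 0.103 with 1 array left out (EGFP array 2 or either shEGFP array for Aif1 and Pax7, either shEGFP array for Tdgf1), the Tdgf1 difference was -0.53 without EGFP array 1, and Dppa2 lost its call without EGFP array 1 (0.79) or shEGFP array 1 (adjusted p = 0.0546). With normexp the calls of Myod1 (0.43), Pax7 (0.16), Tnni1 (-0.70), Tnnt3 (-0.92), Aif1 (-0.77), Tdgf1 (-0.97) and Dppa2 (0.12) were lost.

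The 10 largest increases among genes detected on all 4 control arrays came from probes that read between -5.01 and -1.52 on the EGFP arrays. They were Cdk1, Tbc1d14, Cbx7, Smg8, Usp15, Marchf10, Serpinb6d, Gm5860, 1700071K01Rik and Sft2d1, with differences of 2.50 to 3.64. Cdk1, the mitotic cyclin-dependent kinase, carried the largest. Its probe read -3.10 and -3.10 in EGFP and 0.46 and 0.62 in shEGFP, higher by 3.64 (SE 0.14, adjusted p = 3.68e-05). The other probes of Cdk1 differed by 0.23, for the brightest (3.92 and 3.84 in EGFP, 4.09 and 4.12 in shEGFP), and by -0.48. The same split was seen in Tbc1d14, a regulator of Rab proteins (3.39 against 0.01 for its other probe), Usp15, a deubiquitinase (2.97 against -0.12), and Sft2d1 (2.50 against -0.01). The other probes of Marchf10 (2.95), a ubiquitin ligase of the MARCH family, differed by -0.68 and -1.82. The latter passed the threshold (adjusted p = 0.0438) but was below background on both shEGFP arrays, so the filter fixed its direction and the value is no exact difference. Serpinb6d, a serine protease inhibitor, read -1.52 and -1.63 in EGFP and 1.33 and 1.11 in shEGFP, higher by 2.80 (adjusted p = 2.91e-05). Cbx7, a Polycomb protein, was higher by 3.11 and Smg8, a factor of nonsense-mediated decay, by 3.07. The calls of these 10 held with each control array left out and with normexp.

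Of the probes below background on both EGFP arrays, the largest lower bounds were at least 12.2-fold for the mitotic kinase Aurkb, 11.9-fold for the nucleolar protein Lyar, 9.22-fold for Arhgap19, 7.56-fold for the U1 snRNP protein Snrpc and 6.66-fold for Vmn2r4, all higher in shEGFP, with adjusted p of 2.01e-05 to 0.00402 that do not bear on the direction, which the filter fixed. Aurkb read -4.67 and -4.95 in EGFP and -1.26 and -1.15 in shEGFP. Snrpc has a bright further probe, at 5.23 and 5.04 in EGFP and 4.77 and 4.86 in shEGFP, which differed by -0.32. Of 27 replication and mitosis genes tested, Aurkb alone was changed, against 6.98% of all named genes, and the median of the list was -0.16, against -0.08. Of these 27 genes 25 stood in the high class, where 0.608% of all named genes were changed.

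After Mmp3, the largest decreases among genes detected on all 4 arrays were Krt76, Gm5591, Tnk2os, Eya2, Gm10536, Dsg1c, Cyp1a1, Gm16386 and Pmepa1, with differences of -2.45 to -2.06. Krt76, an epithelial keratin, read -0.02 and 0.30 in EGFP and -2.34 and -2.28 in shEGFP and fell by 2.45 (SE 0.12, adjusted p = 7.46e-05). Eya2, a transcriptional cofactor and phosphatase, read -0.70 and -0.06 against -2.61 and -2.65 and fell by 2.25 (adjusted p = 0.000355). Dsg1c, a desmosomal cadherin, and Cyp1a1, an enzyme induced by the aryl hydrocarbon receptor, fell by 2.08 and 2.07. With normexp Dsg1c differed by -0.99 and Gm16386 by -0.96, and neither was changed. For Gm5591, Tnk2os and Pmepa1 (a target of TGF-beta signalling) the EGFP arrays differed from each other by over 2-fold. A further probe of Gm5591 differed by 0.37, in the opposite direction, and one of Pmepa1 by -0.84, and neither was changed. Their adjusted p reached 0.0517 without shEGFP array 2 for Gm5591, 0.165 for Tnk2os (lost without EGFP array 1 or either shEGFP array) and 0.102 for Pmepa1 (lost without EGFP array 1 or shEGFP array 2). Among probes below background in shEGFP, the largest bounds were Tmem35a (at least 10.7-fold lower), Baiap3 (5.95), Rhox3e (5.83), Rpl10l (5.53) and Speer2 (4.75). The filter fixed their direction. Tmem35a read -0.56 and -3.94 on the EGFP arrays, and its difference of -3.77 was -2.07 without EGFP array 1. Rpl10l read -4.64 and -1.75 there, and its difference of -3.91 was -2.46 without EGFP array 2, so the size and place of these bounds rest on 1 array each. A further Rpl10l probe, detected on all 4 arrays, differed by -0.73 and was not changed. Of these 5 the call of Speer2 alone held with each array left out. That of Baiap3 was lost without any 1 array (adjusted p up to 0.17), those of Tmem35a without either shEGFP array (0.0955), Rhox3e without EGFP array 1 or shEGFP array 2 (0.0816) and Rpl10l without shEGFP array 2 (0.0509).

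Genes with several probes showed how far the calls were tied to single probes. Of 4177 genes with more than 1 probe tested, 329 had a changed probe. In 17 of them (5.17%) every probe was changed in the same direction, in 181 (55.0%) another probe had the same sign without all being changed, in 119 (36.2%) every other probe had the opposite sign, and in 12 (3.65%) probes were changed in both directions.

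The levels on the treated arrays place the differences between the controls beside the slides. For all 10 largest increases, the mean of shActb_1, which shared slide 2 with shEGFP, lay above each of the 3 groups on slide 1. For 8 of the 10 it was also over 2-fold above shActb_2 on slide 3, the group given the other hairpin against the same gene. Over all tested probes, shActb_1 was over 2-fold above shActb_2 for 4.58%, and among the probes higher in shEGFP for 20.9%. It was over 2-fold below shActb_2 for 2.25% of all and for 178 of the 1615 lower in shEGFP. Over the probes higher in shEGFP, the median difference from EGFP was 1.46 in shEGFP, 1.34 in shActb_1 and 0.87 in shActb_2. Over the lower ones it was -1.58, -1.63 and -1.59. These probes were chosen by their difference from the same EGFP arrays, so nothing is read from the sign of these medians, and shActb_1 and shActb_2 differ in both hairpin and slide, which cannot be told apart.

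**Figure D5:**
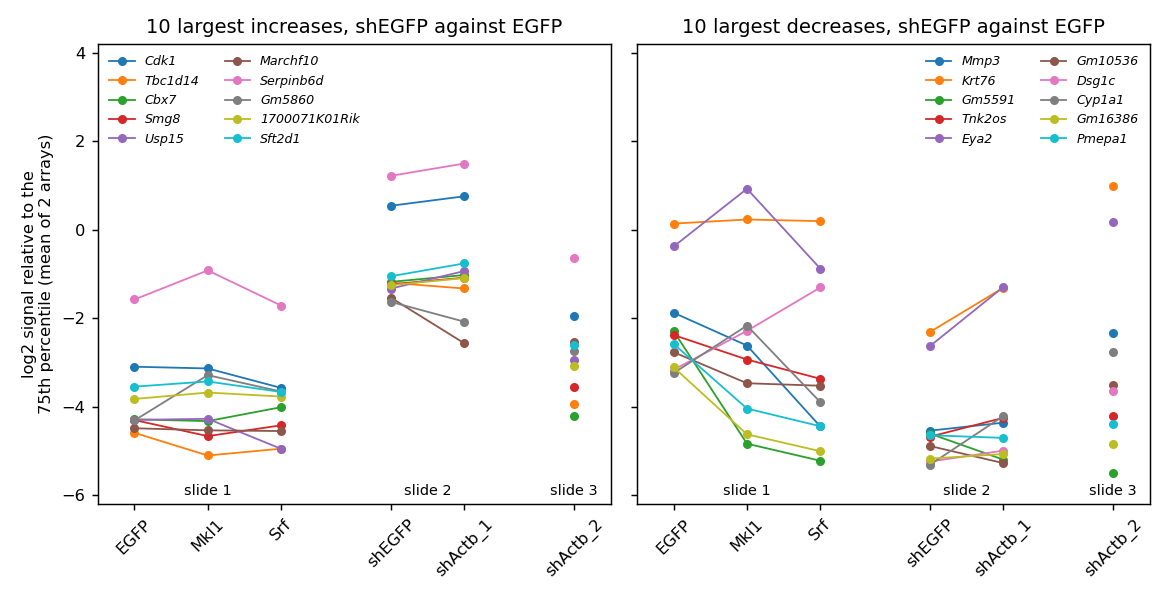
Mean log2 signal relative to the 75th percentile (vertical axis, mean of 2 arrays) in the 6 groups, ordered by slide (horizontal axis), for the 10 largest increases (left) and the 10 largest decreases (right) of shEGFP against EGFP. Lines join groups on the same slide. In the left panel the shActb_1 points lie above all slide 1 points of the same gene and 8 of 10 lie over 2-fold above shActb_2.

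The same 2 types of vector can be compared without the control arrays, as the mean of both Actb hairpins minus the mean of Mkl1 and Srf. That comparison also differs in what the vectors carry. It called 2996 of 38057 probes (7.87%), 1128 (2.96%) higher and 1868 (4.91%) lower with the hairpins. Over the 36436 probes tested in both, 1241 were changed in the same direction and 11 in opposite directions, which is 36.4% of the 3409 changed between the controls and 50.1% of the 2479 changed between the treated groups. Of the probes changed between the controls, 96.2% had the same sign, against 73.6% of all probes tested in both. The share of control calls that recurred was 40.5% and 47.3% with shActb_1 set against Mkl1 and Srf, and 19.4% and 25.3% with shActb_2. These shares depend on the number of probes each pair called. That number was 2491 and 4339 with shActb_1, and 1265 and 2969 with shActb_2. Of the calls of each pair, 53.4% and 33.4% were shared with the controls for shActb_1, and 47.5% and 24.4% for shActb_2. All 10 largest increases were changed and higher in the treated comparison, and of the 10 largest decreases Dsg1c alone was changed and lower. The mean of both hairpins can be high through shActb_1 alone. Cbx7 read -1.03 in shActb_1 and -4.20 in shActb_2, against -4.33 in Mkl1 and -4.01 in Srf. Marchf10 read -2.57 in shActb_1 and -2.54 in shActb_2, against -4.54 in Mkl1 and -4.55 in Srf. The 2 comparisons share no array but share slides and vector backbones, so these shares do not separate the vector from the slide.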

How the data were processed

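Total RNA was labelled with Cy3 and hybridized to 1-colour Agilent mouse arrays. Per the file headers the deposited values are processed signal intensities of single spots, written by Feature Extraction 11.5.1.1 after background subtraction. The authors also deposited a table of log2 values, which equals log2 of the same signals minus a constant for each array and was used as an alternative. The number of features (62976) matches the format in the methods and not that in the labels.

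Log2 was taken, control and outlier spots were dropped, the spots of each probe were averaged, and each array's 75th percentile was taken off. Accessions were matched to the RefSeq table (GRCm38.p6), which named 28026 of 55681 probes (50.3%), 21154 genes. Groups followed the titles. All 12 arrays were fitted with limma 3.58.1 in R 4.3.3 (two-sided), with p-values adjusted over all probes tested. The script was tested on simulated data. For a probe below background on both arrays of 1 control, the fold is a bound, computed per array against the higher of its own signal and the lowest signal well above background. No molecule is counted on arrays, and the number of arrays limits precision.

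The 36 gene lists and the members were chosen with earlier results of these data known. Named genes are those of the progenitor, actin and Srf lists, the 10 largest increases and decreases among changed named probes detected on all 4 control arrays, the 5 largest bounds in each direction and up to 4 changed genes per list; any list gene could be named for its class. Alternatives were normexp (offset 50, on the median spot signal, as the mean column was not used), quantile normalization, the deposited table, other filters and thresholds, a replicate block, a variance trend, the compared arrays only and each array left out. Some items are not reported here.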

Additional observations from a re-analysis of the deposited data

How the results depend on the processing

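The count of 3848 changed probes between the controls (2233 higher, 1615 lower in shEGFP) became 781 (453 and 328) with normexp, 1751 (1051 and 700) with probes above background on all 4 arrays, 14134 (6378 and 7756) by adjusted p alone, 7569 (4403 and 3166) at a fold of 1.5, and 1126 (656 and 470) with 1 probe per named gene and p adjusted over these. The lower calls alone became 2859 without a filter, 2808 with probes above the 20th percentile and 2965 by fold alone. The share of calls higher in shEGFP, 58.0%, was 44.2% without a filter, 46.3% above the 20th percentile, 45.5% without EGFP array 2 and 75.3% without shEGFP array 2. With 1 array left out, the totals ran from 2655 to 4416, the higher calls from 1571 to 2508 and the lower calls from 681 (without shEGFP array 2) to 2408. The treated comparison, 2996 (1128 and 1868), became 479 (225 and 254) with normexp, 966 (497 and 469) with all arrays above background, 4517 (3234 lower) without a filter, 4688 (3345 lower) above the 20th percentile, 15838 (7290 and 8548) by adjusted p alone, 6641 (3067 and 3574) at a fold of 1.5 and 1021 (357 and 664) with 1 probe per named gene. With 1 array left out its totals ran from 2453 to 4077, its higher calls from 1038 to 1440 and its lower calls from 1253 to 2844, the last without shActb_2 array 1. The 38 changed list genes became 13 with normexp and 32 to 50 with 1 array left out. The 36.4% of control calls that recurred between the treated groups became 40.5%, 47.3%, 19.4% and 25.3% for the 4 pairs named above, 34.1% with quantile normalization and 19.8% with normexp. The 551 detected list genes numbered 553 to 610 under other flags, array numbers and probes. Replicate numbers did not pair the arrays (r = 0.07 between the replicate differences of the controls), and a fit with the replicate block gave 4019 changed probes and 37 list genes. Of 63 named changed genes, 40 kept their call with each array left out, 24 lost it with normexp, 28 kept it under both, and no difference changed sign. The cause of these shifts was not tested. Of the changed probes, 954 were below background in EGFP and 746 in shEGFP, where a difference is no exact fold.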
